A study of Mus musculus with 48 samples.

Results

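The genes described here encode 9 secreted proteins that pass signals from liver or fat to other organs. They are Fgf21, Gdf15, Angptl4, Angptl8, Inhbe, Hamp, Fetub, Ahsg and Lect2, taken by symbol from the 56748 Ensembl gene identifiers of the count files, and all 9 were found. RNA was sequenced from liver, from brown fat (brown adipose tissue, BAT) and from the white fat around the epididymis (eWAT). The donors were male mice lacking Agt in hepatocytes, the gene of the hormone precursor angiotensinogen, and littermates without the deletion. The littermates (hepAGT+/+) are called WT and the deleted mice (hepAGT-/-) KO, and the driver of the deletion is not given in the sources used here. Over 12 weeks every group ate a Western diet (milk fat 21%, cholesterol 0.2%), so no group shows a state without this diet. Housing was at 20 to 22 °C (room temperature, RT) or at 30 °C (thermoneutral, TN), warm enough that a mouse need not burn extra fuel for heat. Each tissue therefore had 4 groups (WT RT, KO RT, WT TN and KO TN) of 4 libraries, labelled as biological replicates, and 48 libraries were made in all.

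Hepatokines are proteins that the liver releases into blood and that act on appetite, fuel use, iron uptake or blood lipids elsewhere. FGF21 and GDF15 are hormones of metabolic and cell stress, and brown fat can make FGF21 when it is active in cold. Angiopoietin-like proteins block lipoprotein lipase, the enzyme that takes triglyceride out of circulating lipoproteins, and so decide which tissue receives dietary fat.

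Total counts ran from 23.7 to 36.5 megacounts per liver library, from 25.3 to 39.4 in BAT and from 28.7 to 43.7 in eWAT. Levels are counts per megacount of library total (CPM), with TMM scaling (edgeR, trimmed mean of M values) in each tissue, so levels from separate tissues rest on separate scalings. Agt, the deleted gene, was lower in KO than in WT liver at RT (log2 change -1.14, adjusted p 0.0096) and at TN (log2 change -1.29, adjusted p 0.00113), and KO livers kept 125 to 207 CPM. Fat libraries differed in transcripts of other tissues. The summed level of 11 hepatocyte markers (Alb, Apoa1, Ttr, Fga and others, leaving out Cyp2e1, which fat also expresses) ran from 8.87 to 2739 CPM in BAT and from 28.1 to 5003 CPM in eWAT, against 59608 to 99260 CPM in liver. The BAT libraries KO TN replicates 2 and 5 had the highest sums in BAT, at 2739 and 1505 CPM, and eWAT library KO RT replicate 16 the highest in eWAT. The eWAT library WT RT replicate 18 held 879 CPM of 9 epididymis markers, and skeletal muscle markers in BAT ran from 1.70 to 8619 CPM.

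Liver carried most of these genes, and fat carried Angptl4. Over 16 libraries each, the median level of Ahsg was 4202 CPM in liver, 12.0 in BAT and 19.0 in eWAT. Hamp had medians of 459, 1.33 and 2.57 CPM in the same order, Fetub 316, 1.97 and 1.86, Lect2 123, 0.337 and 0.654, and Inhbe 70.6, 0.247 and 0.501. For each of these genes the lowest liver library lay above the highest fat library. Gdf15 was also a liver gene here (31.5, 0.898 and 0.469 CPM). Angptl8 had medians of 76.7 CPM in liver, 24.8 in BAT and 23.5 in eWAT, and its liver and fat libraries overlapped. Angptl4 ran the other way, at 82.0 CPM in liver, 362 in BAT and 437 in eWAT. Fgf21 was low everywhere, at 2.90 CPM in liver, 0.387 in BAT and 0.587 in eWAT.

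Levels of different genes can be compared only per length, here as mean CPM per kilobase of exon. On that scale liver ranked Ahsg first at 1873, then Hamp at 1172, Fetub at 174, Lect2 at 133, Angptl8 at 88.0, Angptl4 at 25.0, Gdf15 at 20.7, Inhbe at 15.8 and Fgf21 at 3.07. In both fats Angptl4 came first, at 102 in BAT and 118 in eWAT, followed by Angptl8 at 35.1 and 29.6.

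**Figure D1:**
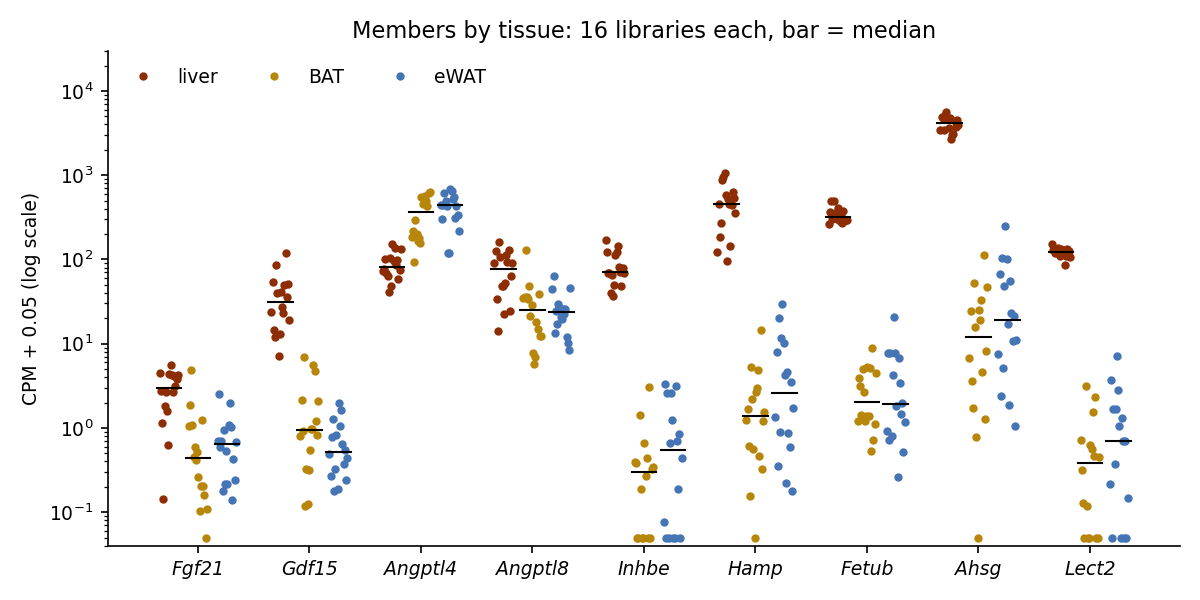
Level of each gene (CPM plus an offset of 0.05, log scale) in the 16 libraries of each tissue, one point per library, with the median as a bar. Liver points lie above fat points for Ahsg, Hamp, Fetub, Lect2 and Inhbe, and below most fat points for Angptl4, while points at the bottom edge are libraries with 0 counts.

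Calls rest on the quasi-likelihood test of edgeR, with a Benjamini-Hochberg adjusted p under 0.05 over the genes tested in a tissue, and all 9 genes passed the filter on low counts in every tissue. In BAT the housing temperature moved 3 of the 9 genes in WT (Angptl4 higher, Angptl8 and Fgf21 lower), against 32.5% of all genes tested. In KO it moved 2 of 9 (Angptl4 and Gdf15, both higher), against 15.2% of all genes. Both shares lie near their background. The all-gene median change between TN and RT in BAT was 0.11 on the log2 scale in WT and 0.04 in KO.

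In the other comparisons edgeR called 0 of the 9 genes. Of all genes, KO against WT called 0.0853% in liver at RT, 3.18% in liver at TN, 0.0887% in BAT at RT, 0% in BAT at TN, 4.34% in eWAT at RT and 0.586% in eWAT at TN. The housing comparison called 0.0227% in WT liver, 0.114% in KO liver, 0% in WT eWAT and 1.74% in KO eWAT, and the interaction of genotype and housing called 0% in each tissue. Without adjustment, 2 of the 9 had p under 0.05 in liver at RT, 1 in liver at TN, 2 in BAT at RT, 1 in BAT at TN, 1 in eWAT at TN, 4 for housing in KO eWAT and 2 for the interaction in BAT, and 0 in the rest. DESeq2 called 2 in liver at RT (Inhbe and Hamp), 1 in liver at TN (Inhbe), 1 in BAT at RT (Gdf15) and 0 in the other comparisons of this paragraph. Over all genes DESeq2 called 206 in liver at RT, 1165 in liver at TN and 982 in BAT at RT. There edgeR called 15, 560 and 16, so the shares above are not the background of the DESeq2 calls. The edgeR counts over all genes rested on single libraries. With 1 library left out, KO eWAT housing went from 330 calls to 0 (without KO TN replicate 3) or 642 (KO RT replicate 16), and eWAT genotype at TN from 111 to 1 (KO TN replicate 5) or 238 (WT TN replicate 8). The eWAT genotype count at RT fell from 821 to 287 without WT RT replicate 18, and WT eWAT housing went from 0 to 13 without WT TN replicate 8. In liver, genotype fell from 560 to 178 at TN without KO TN replicate 4 and from 15 to 4 at RT without WT RT replicate 18. Housing in KO liver went from 20 to 0 (without KO RT replicate 9) or 153 (KO TN replicate 22), and in WT liver from 4 to 2 (WT TN replicate 6) or 23 (WT TN replicate 24). Genotype in BAT at RT went from 16 to 0 without KO RT replicate 10 and to 1979 without WT RT replicate 12. The interaction went from 0 to 21 in BAT without WT RT replicate 12 and from 0 to 4 in eWAT without WT TN replicate 23. Each of these values is the lowest or the highest for its comparison.

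**Figure D2:**
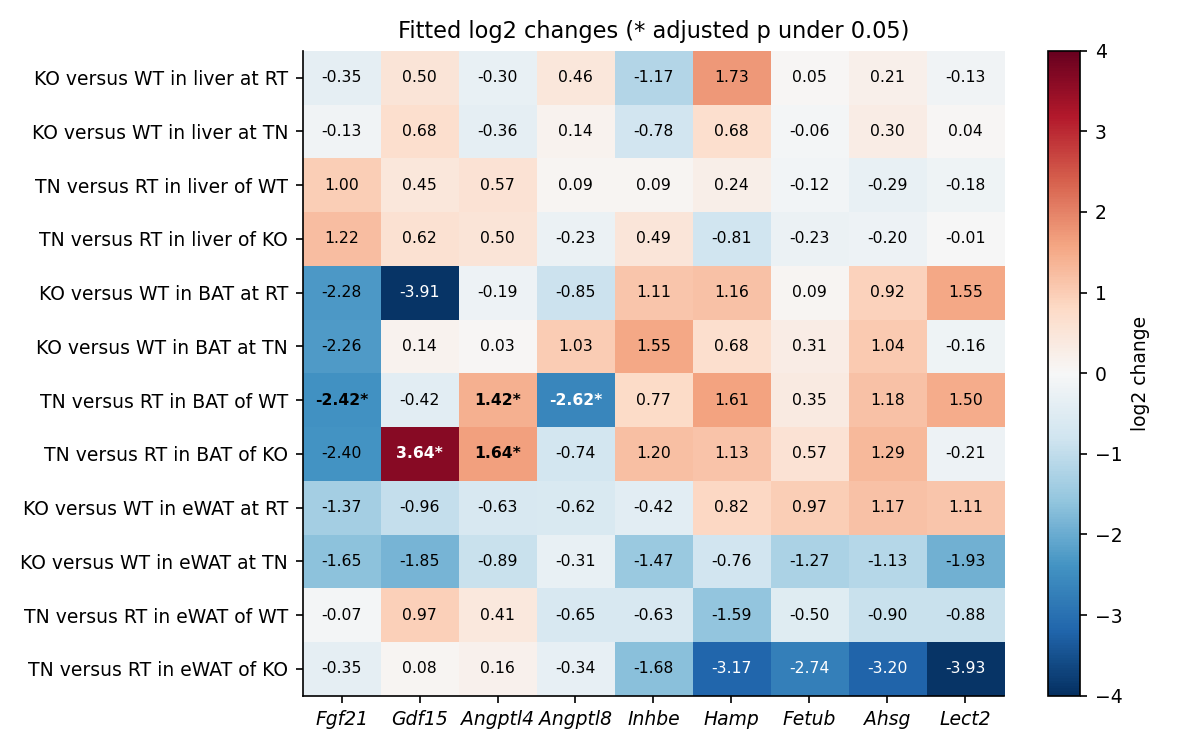
Fitted log2 change of each gene (columns) in each comparison of 4 against 4 libraries (rows), red for higher in the group named first and blue for lower, with an asterisk where the adjusted p was under 0.05. The called changes are the 5 in the 2 rows that compare TN with RT in BAT.

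Fgf21 (ENSMUSG00000030827, chromosome 7, 45613886 to 45615490, minus strand, GRCm38) encodes fibroblast growth factor 21, which acts through FGF receptors and the co-receptor beta-Klotho. Its promoter is shown because the gene fell in WT BAT with Angptl8, and both promoters hold the C/EBP-ATF element TGATGNAAT, through which the transcription factor ATF4 can act. The 150 bases before each start site (RefSeq, GRCm38.p6) are given 5′ to 3′ on the gene's strand with the element in capitals. It lies 140 bases before the start of Fgf21, on the opposite strand, and 130 bases before that of Angptl8. Of 32851 promoters (250 bases before to 50 after a start) searched on both strands, 0.965% held it, and a match is a description of letters only.
Fgf21, chr7:45615491-45615640, minus strand: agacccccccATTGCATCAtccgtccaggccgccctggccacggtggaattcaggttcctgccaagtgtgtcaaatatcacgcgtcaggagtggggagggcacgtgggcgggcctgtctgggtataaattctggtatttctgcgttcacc
Angptl8, chr9:21835360-21835509, plus strand: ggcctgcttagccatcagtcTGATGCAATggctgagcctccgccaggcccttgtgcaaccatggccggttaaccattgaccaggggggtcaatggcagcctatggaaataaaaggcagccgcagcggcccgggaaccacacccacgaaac

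In BAT, Fgf21 was lower at TN. WT RT libraries held 1.02, 1.81, 4.88 and 1.04 CPM and WT TN libraries 0.214, 0.0539, 0.155 and 1.20 CPM. The groups overlapped through replicate 24 of WT TN, the other 3 lying below every RT library. The log2 change was -2.42 (SE 0.86, adjusted p 0.0374, 4 against 4). In KO the levels were 0.408, 0.545, 0.367 and 0.464 CPM at RT and 0.154, 0.110, 0 and 0.0581 CPM at TN, without overlap. The log2 change in KO was -2.40, which edgeR did not call (adjusted p 0.0904) and DESeq2 did (adjusted p 0.0419). The TN values of KO rest on 0 to 6 counts per library, and a count of 0 (TN replicate 4) allows up to 0.0836 CPM on the TMM scale, from 3 counts and for counting error only.

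The WT call for Fgf21 was lost without RT replicate 17 (log2 change -1.66, adjusted p 0.202), RT replicate 15 (adjusted p 0.0564), or TN replicates 1, 6 or 7 (adjusted p 0.102, 0.1004 and 0.109). Without TN replicate 24 the change was -3.94 (adjusted p 0.00214). The genotype and housing comparisons of a tissue share libraries. KO BAT at RT lay below WT BAT at RT in every library, a log2 change of -2.28 (SE 0.86) that was not called (adjusted p 0.168). The interaction for Fgf21 was 0.02 on the log2 scale (adjusted p 0.997). The order of the BAT group means was WT RT (2.19 ± 1.83 CPM, SD, n = 4), KO RT (0.446 ± 0.0771), WT TN (0.406 ± 0.533) and KO TN (0.0805 ± 0.0664), and the middle groups differed by less than their spread.

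In liver, Fgf21 was higher at TN than at RT in KO without overlap, at 3.13 to 4.18 CPM against 0.577 to 2.65 CPM, and this was not called (log2 change 1.22, adjusted p 0.509). WT liver held 0.0917 to 4.40 CPM at RT and 2.63 to 5.52 CPM at TN. The fitted changes in liver thus had the opposite sign to those in BAT. The test of whether the housing effect in WT differs between tissues took the 48 libraries as independent. It called 0 of 9 genes, against 15% of all genes, with adjusted p 0.0701 for Fgf21. Its adjusted p was 0.0449, 0.0334 and 0.00531 without eWAT WT RT replicate 13, liver WT RT replicate 11 and BAT WT TN replicate 24.

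Gdf15 (ENSMUSG00000038508, chromosome 8, 70629393 to 70632456, minus strand) encodes growth differentiation factor 15, which lowers food intake through a receptor in the hindbrain. In BAT of KO mice it was higher at TN. RT libraries held 0.0679, 0.272, 0.0734 and 0.265 CPM, from 2 to 8 counts each, and TN libraries 4.71, 1.16, 0.781 and 2.03 CPM, from 28 to 184 counts. The groups did not overlap, and the log2 change was 3.64 (SE 0.96, adjusted p 0.0162). The largest values at TN came from replicates 2 and 5, the libraries with the most hepatocyte markers in BAT. Without both, the log2 change was 2.50 (adjusted p 0.174). Without RT replicate 14 or TN replicate 2 alone, the adjusted p was 0.0540 or 0.0526, and the change was 2.93 without TN replicate 2. Gdf15 in replicates 2 and 5 came to 0.202% and 0.155% of the hepatocyte marker sum, against a median of 0.0350% and a highest value of 0.127% in liver. Skeletal muscle markers summed to 8619 and 1058 CPM in TN replicates 2 and 5, and to 1.70 and 2.23 CPM in TN replicates 3 and 4. At RT, KO replicates 14 and 19 held 4278 and 1368 CPM of them, and replicates 9 and 10 held 257 and 2.64 CPM. The part of liver or muscle transcripts in the Gdf15 change was not tested.

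In WT BAT, Gdf15 was 0.745, 2.08, 0.880 and 6.88 CPM at RT and 0.499, 0.917, 0.930 and 5.52 CPM at TN, overlapping (log2 change -0.42, adjusted p 0.729). The interaction was 4.06 on the log2 scale and was not called (adjusted p 0.443), so the 2 genotypes were not shown to differ. All 4 KO RT libraries lay below all 4 WT RT libraries (log2 change -3.91, SE 0.97), which edgeR did not call (adjusted p 0.0982) and DESeq2 did (adjusted p 0.00088). The adjusted p from edgeR was 0.0168 without WT RT replicate 12 and up to 0.288 without other single libraries. The test of whether the RT genotype effect differs between tissues called 0 of 9 genes, against 2.06% of all genes (adjusted p 0.0903 for Gdf15). In eWAT at TN, KO libraries (0.190 to 0.504 CPM) lay below WT libraries (0.588 to 1.94 CPM), with a log2 change of -1.85 that was not called (adjusted p 0.242).

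Angptl4 (ENSMUSG00000002289, chromosome 17, 33773750 to 33781830, minus strand) encodes an inhibitor of lipoprotein lipase that is raised by fatty acids through PPAR receptors and by fasting. In BAT it was higher at TN in both genotypes. WT libraries held 185, 219, 93.8 and 295 CPM at RT and 549, 461, 541 and 572 CPM at TN. KO libraries held 198, 164, 178 and 155 CPM at RT and 498, 429, 617 and 628 CPM at TN. All 8 TN libraries thus lay above all 8 RT libraries.

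The log2 change of Angptl4 in BAT was 1.42 (SE 0.24, adjusted p 0.000305) in WT and 1.64 (SE 0.25, adjusted p 0.000234) in KO. The ratio of the group means was 2.68 in WT and 3.12 in KO. Both calls held whichever single library was left out, with changes of 1.19 to 1.68 in WT and 1.57 to 1.77 in KO, and the KO call held without replicates 2 and 5 (adjusted p 0.00275). At a given temperature the genotypes differed by -0.19 at RT (adjusted p 0.704) and 0.03 at TN (adjusted p 0.999) on the log2 scale, and the interaction was 0.22 (adjusted p 0.839).

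Angptl4 in liver was 68.0 to 100.2 CPM in WT at RT and 87.0 to 151 CPM in WT at TN, overlapping. In eWAT its KO libraries at TN (308, 435, 336 and 220 CPM) lay below the WT libraries (691, 642, 524 and 544 CPM), with a log2 change of -0.89 that was not called (adjusted p 0.383). At RT the KO libraries of eWAT spread from 118 to 499 CPM and overlapped WT (306 to 615 CPM). The lowest eWAT libraries, KO RT replicates 19 and 16, had the highest hepatocyte marker sums of that tissue, and the part of this in their level was not tested.

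Angptl8 (ENSMUSG00000047822, chromosome 9, 21835510 to 21837347, plus strand) encodes a protein induced by feeding that helps to hold back lipoprotein lipase in muscle and heart. The gene lies inside Dock6 on the other strand, and without a stated strand setting reads of the pair cannot be told apart. In WT BAT, Angptl8 was 34.5, 35.5, 131 and 36.1 CPM at RT and 7.74, 5.61, 6.93 and 18.2 CPM at TN. Every TN library lay below every RT library, and replicate 17 stood far above the other RT libraries. The log2 change was -2.62 (SE 0.59, adjusted p 0.00467), and it held its call in each of the 8 fits that left out 1 library, at -1.88 without replicate 17.

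In KO BAT, Angptl8 was 33.7, 48.2, 21.1 and 28.6 CPM at RT and 14.8, 39.3, 12.2 and 12.3 CPM at TN. These groups overlapped through TN replicate 3, and the change of -0.74 was not called (adjusted p 0.451). The interaction was 1.88 (adjusted p 0.475), so a difference between genotypes was not shown. Liver held 14.0 to 161 CPM and eWAT 8.34 to 64.1 CPM, with group ranges that overlapped in each comparison. Whether the WT housing effect differs between tissues had an adjusted p of 0.0728 for Angptl8, and of 0.0397, 0.0326 and 0.0477 without liver WT RT replicate 12, BAT WT TN replicate 24 and liver WT TN replicate 1.

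**Figure D3:**
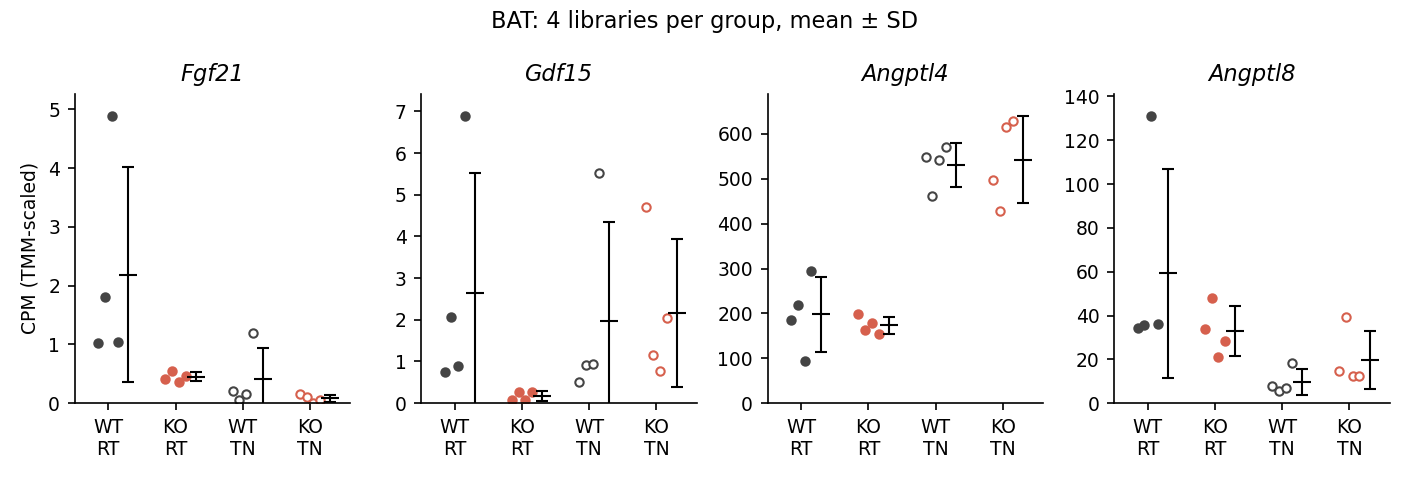
Level (TMM-scaled CPM, linear axis from 0) of Fgf21, Gdf15, Angptl4 and Angptl8 in BAT by genotype and housing, one point per library (filled RT, open TN) with the mean ± SD of 4 libraries, error bars cut at 0. Angptl4 is above 429 CPM in every TN library and below 296 CPM in every RT library, while the WT means of Fgf21, Gdf15 and Angptl8 at RT are each raised by 1 library.

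In BAT, summed levels of cell type markers moved with housing as well. Summed macrophage markers were 34.9 to 91.0 CPM at RT and 143 to 402 CPM at TN, and summed brown adipocyte markers (Ucp1, Cidea, Dio2 and others) 7691 to 13071 CPM at RT and 3239 to 7284 CPM at TN. Summed adipocyte markers stayed between 9137 and 14169 CPM over all 16 libraries. Median skeletal muscle sums were 43.5 CPM at RT and 2855 CPM at TN in WT, and 812 and 530 CPM in KO. Median hepatocyte sums without Cyp2e1 were 86.5 and 633 CPM in WT, and 144 and 834 CPM in KO. For muscle and hepatocyte sums the RT and TN libraries overlapped in each genotype. In bulk tissue, fewer cells of a type and less RNA per cell cannot be told apart. The part of these shifts in the changes of Fgf21, Gdf15, Angptl4 and Angptl8 was not tested.

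The receptors and partners of these genes were counted in BAT beside all genes (2864 higher and 3003 lower at TN in WT, 32.5% in all, and 1198 and 1537 in KO, 15.2% in all). Of 5 FGF21 receptor genes tested, Fgfr1, the main FGF21 receptor of fat, rose at TN from 52.2 ± 8.53 to 72.8 ± 7.43 CPM (SD, n = 4) in WT (log2 change 0.48, adjusted p 0.0126) and by 0.53 in KO, where Fgfr2 fell by 1.15. The list's median change was 0.48 in WT and 0.12 in KO. Of 16 targets of ATF4, the factor of the integrated stress response, 3 rose and 2 fell in WT (median 0.59), and 5 rose and 1 fell in KO (median 0.47). Phgdh, which starts serine synthesis, rose from 8.61 ± 5.28 to 59.7 ± 13.3 CPM in WT (log2 change 2.80) and by 4.34 in KO, and Psat1 of the same pathway rose by 1.11 and 1.28. Trib3 rose by 0.84 in WT and Atf3 by 1.86 in KO. Atf5 fell by 0.97 in WT and by 0.84 in KO, and Asns, asparagine synthetase, fell by 0.74 in WT.

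Of 15 PPAR alpha targets, 1 rose and 5 fell in WT BAT at TN (median 0.29), and 1 rose and 3 fell in KO (median -0.01). Vnn1 rose by 1.46 in WT and 2.29 in KO. Plin2, a lipid droplet coat protein, fell by 1.51 and 1.46, and Acadl, of fatty acid oxidation, fell by 1.11 and 0.72. Of 12 genes of the lipoprotein lipase system, 0 rose and 2 fell in each genotype (median -0.17 and -0.12). Apoc1, an apolipoprotein that restrains lipoprotein lipase, fell by 1.85 in WT and 1.20 in KO, and Lmf1, which helps the lipase fold, fell by 0.83 and 0.46. Of 4 other angiopoietin-like genes tested, Angptl2 rose by 0.68 and 0.73, and Angptl6 fell by 0.89 in WT.

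Inhbe (ENSMUSG00000047492, chromosome 10, 127348857 to 127354411, minus strand) encodes the beta E subunit of inhibin, from which hepatocytes make activin E, a signal that holds back lipolysis in fat. An antisense gene, Gm47200, overlaps it. In liver at RT, KO libraries held 40.4, 64.7, 36.4 and 49.5 CPM and WT libraries 168, 124, 69.6 and 68.7 CPM. At TN, KO libraries held 71.6, 48.8, 78.8 and 68.6 CPM and WT libraries 112, 121, 145 and 80.2 CPM. At each temperature all 4 KO libraries lay below all 4 WT libraries.

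edgeR called neither difference of Inhbe. The log2 change was -1.17 at RT (SE 0.28, adjusted p 0.139) and -0.78 at TN (SE 0.28, adjusted p 0.154), and DESeq2 gave adjusted p of 0.00307 and 0.0447. The interaction was 0.40 (adjusted p 0.895). In fat Inhbe was at most 3.25 CPM and had 0 counts in 6 of 16 BAT and 5 of 16 eWAT libraries. Of 13 other genes of the activin and inhibin system tested in liver, 0 were called in either genotype comparison by edgeR. In BAT, where housing called 32.5% of all genes in WT and 15.2% in KO, 5 of 13 rose at TN in WT (median 0.82), among them the receptors Acvr1b (1.35) and Acvr1 (1.10) and the subunit gene Inhbb (1.14), and 2 rose in KO (median 0.45), Inhbb (1.73) and Tgfbr3 (0.58).

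Hamp (ENSMUSG00000050440, chromosome 7, 30942368 to 30944032, minus strand) encodes hepcidin, the hormone that closes the iron exporter ferroportin. The 150 bases before its start are shown because hepcidin transcription is known to answer to iron through BMP and SMAD signals and to inflammation through STAT3. Capitals mark the BMP response element core GGCGCC, 109 bases before the start, and the STAT site TTCNNNGAA, 97 bases before it. Of the 32851 promoters, 11.866% held the first and 8.298% the second on either strand.
Hamp, chr7:30944030-30944179, minus strand: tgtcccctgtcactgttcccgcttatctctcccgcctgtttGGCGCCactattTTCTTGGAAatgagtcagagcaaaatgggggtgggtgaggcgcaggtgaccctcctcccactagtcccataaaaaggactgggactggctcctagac

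In liver at RT, Hamp was 868, 953, 1048 and 582 CPM in KO and 123, 460, 183 and 272 CPM in WT, and every KO library lay above every WT library. The log2 change was 1.73 (SE 0.54), which edgeR did not call (adjusted p 0.268) and DESeq2 called (adjusted p 0.0477). At TN, KO livers held 446, 636, 535 and 357 CPM and WT livers 96.6, 529, 458 and 146 CPM, and the groups overlapped (log2 change 0.68). The interaction was -1.05 (adjusted p 0.825). The group means ran from KO RT (863 ± 201 CPM, SD, n = 4) over KO TN (493 ± 120) and WT TN (307 ± 218) to WT RT (260 ± 147). KO RT and KO TN overlapped, between 582 and 636 CPM, and the other neighbours in this order differed by less than the larger of their SDs. A paralog, Hamp2, and an overlapping RNA, Gm44662, could share reads with Hamp.

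Of 20 other genes of the hepcidin and iron system tested in liver, edgeR called 0 at RT (list median 0.0004, all-gene median 0.02) and 2 at TN, both lower in KO (list median -0.13, all-gene median 0.05), against 3.18% of all genes called at TN. At TN the level of Tmprss6, a protease that restrains hepcidin, was 390 ± 21.3 CPM in WT livers (SD, n = 4) and 278 ± 12.1 CPM in KO livers (log2 change -0.49, adjusted p 0.0453). Ftl1, ferritin light chain, fell by 0.53 (adjusted p 0.0496), and its many processed copies make its count uncertain. In BAT of WT mice, 5 of 20 of these genes rose at TN and 3 fell (median 0.38), and in KO 3 rose and 2 fell (median 0.33), against 32.5% of all genes called in WT and 15.2% in KO. Smad1 rose by 1.62 in WT and 1.12 in KO, and Smad7, a brake on SMAD signals, rose by 1.11 in WT. The iron sensor gene Tfr2 fell by 2.71 in WT and 2.72 in KO, and the ferritin gene Fth1 fell by 0.74 and 0.78.

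**Figure D4:**
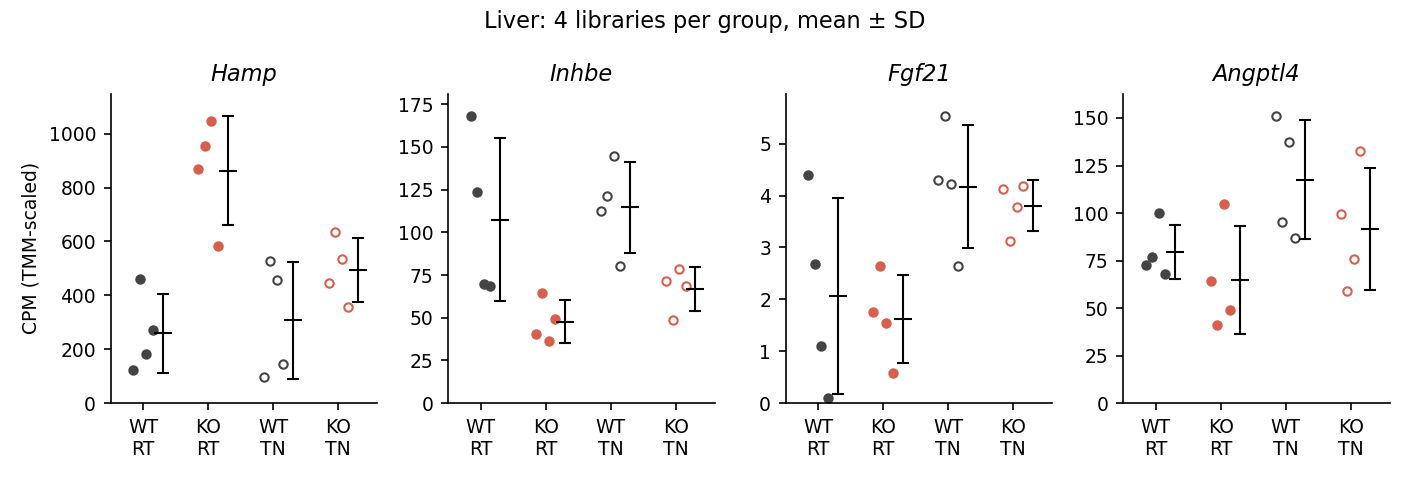
Level (TMM-scaled CPM, linear axis from 0) of Hamp, Inhbe, Fgf21 and Angptl4 in liver by genotype and housing, one point per library (filled RT, open TN) with the mean ± SD of 4 libraries. KO RT points of Hamp lie above all WT RT points, from 582 to 1048 CPM against 123 to 460 CPM, and KO points of Inhbe lie below the WT points of the same temperature.

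Fetub (ENSMUSG00000022871, chromosome 16, 22918334 to 22939778, plus strand) and Ahsg (ENSMUSG00000022868, chromosome 16, 22891277 to 22899449, plus strand) are neighbours that encode fetuin B and fetuin A, plasma proteins of the cystatin family. Fetuin A binds calcium phosphate and inhibits the insulin receptor, and fetuin B is needed for fertilisation. Lect2 (ENSMUSG00000021539, chromosome 13, 56542464 to 56548502, minus strand) encodes a chemotactic hepatokine. In liver Fetub ran from 263 to 493 CPM, Ahsg from 2660 to 5551 CPM and Lect2 from 84.9 to 152 CPM over all 16 libraries. The group means of Lect2 in liver were 132 ± 14.3 CPM (SD, n = 4) in WT RT, 121 ± 11.8 in KO RT, 117 ± 22.1 in WT TN and 119 ± 12.7 in KO TN, and the 4 groups overlapped. None of the 3 genes was called by edgeR or DESeq2 in liver in any of the 5 comparisons.

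In fat, these liver genes moved with the hepatocyte markers. The 4 BAT libraries with the highest marker sums were also the 4 with the most Ahsg, and 3 of the 4 with the most Fetub, Lect2, Inhbe or Hamp. In eWAT 3 of 4 were shared for each of the 5 genes. Ahsg came to a median of 5.03% of the marker sum in BAT, 4.27% in eWAT and 4.78% in liver. Hamp came to 0.640%, 0.646% and 0.505%, and Lect2 to 0.0722%, 0.109% and 0.138%. Fetub came to 0.820% in BAT, 0.454% in eWAT and 0.378% in liver, and it reached 13.4% in the BAT library with the lowest marker sum (KO RT replicate 19). Angptl4 stood at a median of 126% of the marker sum in BAT and 97.1% in eWAT, against 0.106% in liver, and Angptl8 at 12.5%, 4.05% and 0.0901%.

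Of the 12 comparisons, housing in KO eWAT gave these 4 genes their largest fitted changes, none called. From RT to TN the log2 change was -3.20 for Ahsg, -2.74 for Fetub, -3.93 for Lect2 and -3.17 for Hamp, with adjusted p of 0.261, 0.226, 0.235 and 0.271. The hepatocyte marker sums of these groups were 128 to 5003 CPM at RT and 56.4 to 541 CPM at TN. Ahsg was 5.10, 48.3, 250.4 and 102 CPM at RT and 10.7, 21.2, 1.01 and 11.0 CPM at TN, and the 250.4 CPM came from RT replicate 16. With that library and WT RT replicate 18 left out, the changes were -2.24 for Ahsg, -1.76 for Fetub, -3.03 for Lect2 and -2.37 for Hamp. Over the 3 tissues, the housing effect in KO differed for 0 of 9 genes (4.06% of all genes), and the genotype effect at TN for 0 of 9 (0.904% of all genes). Without adjustment 7 of the 9 had p under 0.05 for the former, 0 for the latter, 1 for the RT genotype test and 2 for the WT housing test.

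**Figure D5:**
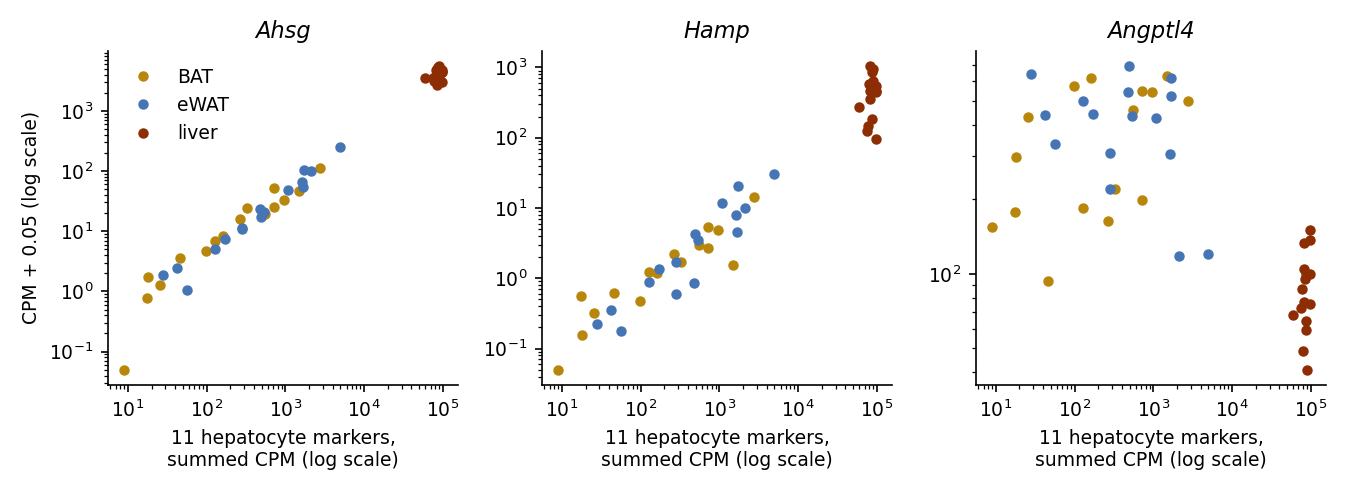
Level of Ahsg, Hamp and Angptl4 (CPM plus an offset of 0.05) against the summed CPM of 11 hepatocyte markers in the 48 libraries, both axes log scaled, one point per library. Ahsg and Hamp rise with the marker sum through BAT and eWAT towards liver, and Angptl4 does not.

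For each gene up to 3 genes with the most similar pattern are named, taken over the 16 libraries of the tissue where it was highest, by Pearson's r of log2(CPM + 1), as a description of libraries that share groups. In liver, Fetub was followed most closely by Vtn (0.94), Plg (0.91) and Tbcc (0.88), and Ahsg by Serpinf2 (0.91), Serpina1a (0.90) and Ces1c (0.87). Lect2 was followed by Mbl2 (0.89) and Ppa1 (0.84). Gdf15 was followed by Pnrc1 (0.85), Nr0b2 (0.82) and Ccn1 (0.81), Fgf21 by Adprhl2 (0.85), Cyp2a22 (0.81) and Gm31522 (0.81), and Angptl8 by Klc2 (0.87), Brd2 (0.86) and Ddx39b (0.85). Inhbe was followed by Gm47528 (0.84), Apoa4 (0.83) and Gm10680 (0.82), and Hamp by Gm10501 (0.84), 4732419C18Rik (0.81) and Gm4673 (0.81). In eWAT, Angptl4 was followed by Dram1 (0.91), Fas (0.91) and Smpdl3a (0.88). These were the highest of 13385 genes in liver and 14532 in eWAT, so each is the best of many.

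At TN in liver 3.18% of all genes were called between genotypes, 235 higher and 325 lower in KO. Among the other lists in liver, 3 of 15 PPAR alpha targets were lower in KO at TN and 0 higher (list median -0.52, all-gene median 0.05), and 0 of 15 called at RT (median -0.16). Ehhadh, of peroxisomal fatty acid oxidation, fell by 0.81, and Cpt1a, which lets fatty acids into mitochondria, fell by 0.69. Fgf21, itself a target of this receptor in liver, changed by -0.13 there and was not called. Of 17 other hepatokine genes at TN, Enho, which encodes adropin, rose by 2.68 and Tsku, tsukushi, fell by 1.20 (list median -0.04). The Enho change rests on low levels, with a KO mean of 2.51 ± 1.10 CPM (SD) against a WT mean of 0.388 ± 0.161 CPM. Dnaic1 and Gm12406 overlap Enho on the opposite strand, and because the strand setting is not given, their reads could add to its count. Pcsk6, a protease that cleaves lipases, fell by 1.03 and was the called gene among 13 of the lipoprotein lipase system (list median -0.21).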

How the data were processed

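The files hold counts per Ensembl gene, deposited by the authors for each of 48 libraries. The submitters' processing notes name fastp, STAR 2.6.1d, featureCounts 1.5.0-p3, GRCm38 and mm10; the annotation release, strand setting and whether reads or pairs were counted are not given in the sources used here. Between 68.25% and 74.0% of counts from 1 to 100 were even, so p-values were also computed on halved counts. Of 56748 identifiers, 52073 had a symbol; coordinates are from GENCODE M21 (GRCm38).

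Each tissue (16 libraries) was fitted in R 4.3.3 with edgeR 4.0.16: TMM scaling, filterByExpr (minimum count 10), a mean for each group, and quasi-likelihood F tests with the robust option, Benjamini-Hochberg threshold 0.05. Differences between tissues were F tests over 48 libraries, which the main fit took as independent. The steps were run on simulated data with known changes first. Alternatives were RLE scaling, no filter, DESeq2 1.42.0, leaving out each library and the replicate number as a block; halved counts and leaving out libraries rich in other tissues' markers were chosen after seeing the data. Counts of 0 entered the fits and means as 0. The upper limit given for a library at 0 is 3 counts, which covers counting error only.

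The 9 genes and the lists were chosen with earlier results of these data known. All 9 are named; of the lists, up to 3 called genes per direction and comparison with a mean of at least 1 CPM, by size of change. A few genes selected in this way are left unreported. The alternatives were followed for the 9 genes and Agt, not for genes of the lists. Marker sums use plain CPM; hepatocyte markers are summed without Cyp2e1, left out after its level in fat was seen. RefSeq promoters (GRCm38.p6) matched 8 of 9 genes. Angptl4 has no promoter shown.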

Additional observations from a re-analysis of the deposited data

Results flagged for a closer look

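Each gene was examined for a library far from the other 3 in its group of 4, by Dixon's criterion, on the CPM scale. Of 108 groups of gene, tissue, genotype and housing, 14 held such a library. The criterion flags about 5% of groups where values are normally distributed, which was not checked for CPM. Each flagged value was the highest of its group, and some libraries were flagged for several genes. The 14 flags were therefore not shown to exceed chance. In WT BAT at TN, replicate 24 stood above the others for Fgf21 (1.20 CPM), Gdf15 (5.52 CPM) and Angptl8 (18.2 CPM). That library also had the highest brown adipocyte marker sum of its group (7284 CPM against 3690 to 3791). The part of this in its values was not tested.

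Angptl8 stood high in 1 library of WT BAT at RT (131 CPM, replicate 17), of KO BAT at TN (39.3 CPM, replicate 3) and of KO eWAT at TN (45.2 CPM, replicate 21). Fgf21 stood high in WT eWAT at RT (2.47 CPM, replicate 13). Fetub stood high in KO liver at TN (377 CPM, replicate 2).

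The remaining libraries held transcripts of liver genes in fat. In BAT, KO RT replicate 9 was high for Lect2 (3.06 CPM) and Inhbe (1.39 CPM), KO TN replicate 2 for Inhbe (2.97 CPM) and Hamp (14.5 CPM), and WT TN replicate 7 for Lect2 (1.499 CPM). Each of these had the highest hepatocyte marker sum of its group, at 728, 2739 and 967 CPM without Cyp2e1. In eWAT, Lect2 was high in KO TN replicate 4 (0.655 CPM).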

How the results depend on the processing

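RLE scaling, no filter on low counts and halved counts left the same 5 calls, and 0 others, among the 9 genes in the comparisons within a tissue. DESeq2 moved the number called from 0 to 2 in liver at RT, 0 to 1 in liver at TN and 0 to 1 in BAT at RT, and from 2 to 3 for housing in KO BAT (Fgf21 added). For housing in KO BAT, DESeq2 called 3487 of all genes and edgeR 2735. Leaving out 1 library gave 0 to 1 called genes for genotype in BAT at RT, 2 to 3 for housing in WT BAT and 1 to 2 in KO BAT. Between tissues it gave 0 to 1 for genotype at RT, 0 to 2 for housing in WT and 0 to 1 for housing in KO. Without BAT KO TN replicates 2 and 5, 1 gene was called for housing in KO BAT. No change reversed sign under any alternative among those with an unadjusted p under 0.05 or groups that did not overlap.

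Same-numbered libraries of different tissues deviated from their group means with correlations of -0.36 to 0.22, and 6 of 35 pairs exceeded 0.1, so the numbers were not shown to pair. With the replicate block, 0 of 9 genes differed between tissues (adjusted p 0.0909 for Fgf21 and 0.109 for Angptl8 in WT housing, 0.416 for Gdf15 in the RT genotype test), and all-gene calls fell from 451 to 55, 198 to 42, 3292 to 1714 and 889 to 312.

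Counts over all genes depended on the tool. DESeq2 called 206, 1165, 89, 377 and 20 genes where edgeR called 15, 560, 4, 20 and 0 in liver (genotype at RT and TN, housing in WT and KO, interaction), 982, 19 and 25 for 16, 0 and 0 in BAT (genotype at RT and TN, interaction), and 1559, 713, 104, 1229 and 10 for 821, 111, 0, 330 and 0 in eWAT. For housing in BAT it called 6676 for 5867 in WT and 3487 for 2735 in KO. Genotype in BAT at RT went from 16 to 0 with RLE scaling or halved counts, to 47 with no filter and to 1979 without WT RT replicate 12. No filter gave 25, 10 and 77 calls in liver for 15, 4 and 20, 1 for 0 for housing in WT eWAT, and 276 for 451 between tissues at RT, and halved counts gave 7 and 34 for housing in liver. Without the marker-rich libraries, KO BAT housing called 1101 for 2735, and eWAT called 307 for 821 (genotype at RT) and 562 for 330 (KO housing). Depth limited Fgf21 in KO BAT and Gdf15 in KO BAT at RT, where libraries held 0 to 16 counts.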

Other observations

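Within a group of livers the 9 genes differed in how evenly they were expressed. Lect2 ran from 108 to 137 CPM in KO livers at RT, and Fetub from 283 to 377 CPM in KO livers at TN. Gdf15 ran from 7.14 to 85.9 CPM in KO livers at RT and from 19.3 to 118 CPM in KO livers at TN, and Angptl8 from 14.0 to 127 CPM in WT livers at RT. Angptl8, which feeding induces, was highest in the WT RT libraries in replicate 12 (127 CPM), which was also the highest of its group for Gdf15 (53.3 CPM). KO RT replicate 9 was the highest of its group for both (161 and 85.9 CPM), as was KO TN replicate 2 (131 and 118 CPM). In WT livers at TN the highest libraries differed, replicate 7 for Angptl8 (113 CPM) and replicate 24 for Gdf15 (49.4 CPM). Times of feeding before collection are not given in the sources used here.

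In eWAT at RT, partners of these genes were called although the genes themselves were not. Ret, the signalling subunit of the GDF15 receptor, was lower in KO (19.8 ± 4.38 against 51.7 ± 19.0 CPM, SD, n = 4, log2 change -1.38, adjusted p 0.025). Gfral, the other gene listed for that receptor, did not pass the filter on low counts in eWAT, so a complete receptor was not shown there. Over all genes, 4.34% were called in this comparison, 228 higher and 593 lower in KO. Without KO RT replicate 16 and WT RT replicate 18, rich in markers of other tissues, the all-gene count was 307 in place of 821. Whether the genes named here kept their calls in that fit was not examined. Of 14 genes of the activin and inhibin system 3 were lower in KO, Acvr1b (-1.19), Fstl3 (-0.92) and Inhbb (-0.56), with a list median of 0.09. At TN Inhbb was lower too (-0.58), in a comparison whose all-gene count went from 111 to 1 or 238 with 1 library left out. In KO eWAT, Acvr1b and Fstl3 were higher at TN than at RT (0.84 and 0.72), where the all-gene count went from 330 to 0 or 642. Of 17 ATF4 targets at RT, Asns was higher (0.71), and Ddit4 (-1.82), Vldlr (-0.98) and Sesn2 (-0.79) were lower, with a list median of -0.10. Gpnmb, a hepatokine that macrophages also make, was lower (-2.15), and summed macrophage markers were 440 to 647 CPM in KO and 608 to 894 CPM in WT. The part of macrophages in these differences was not tested.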
